A study of Homo sapiens with 6 samples.

Results

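The zinc finger genes of chromosome 19 were followed in Kasumi-1, a human acute myeloid leukaemia line that carries the RUNX1-RUNX1T1 fusion, after 72 h with 10 ng/ml recombinant human interleukin-10 (IL-10) or with 0.5% bovine serum albumin (BSA) as control. Members were the protein-coding genes of chromosome 19 whose symbol is ZNF plus a number, with an optional letter, as GENCODE 29 places them. The deposited table held 208 of them among 27576 genes. Of these, 192 had a value of at least 1 in 3 or more of the 6 libraries and are described here, beside 21946 genes in all that passed the same filter. Each group had 3 libraries, IL-10 replicates 1 to 3 and control replicates 1 to 3. Both groups were grown in RPMI1640 to which 20% fetal bovine serum was added, and all libraries come from 1 cell line. Whether the replicates came from separate cultures is not in the labels, so a p-value here covers the spread among these libraries, and that spread may be technical. Values are normalised read counts, that is reads divided by 1 size factor per library.

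A C2H2 zinc finger is a short fold in which a pair of cysteines and a pair of histidines hold a zinc ion, and an array of such fingers reads DNA. Many genes of chromosome 19 join the fingers to a KRAB box, which recruits TRIM28 (KAP1) and through it SETDB1, a histone H3 lysine 9 methyltransferase, and HP1 proteins. The family expanded by tandem duplication, so its members lie in clusters, and many bind and silence retroelements. By the letters of the KRAB consensus in the translated coding sequence, 158 of the 192 described members (82.3%) had a match, against 39 of 14909 protein-coding genes outside the ZNF genes (0.262%). The members carried a median of 12 fingers by the C2H2 spacing, between 0 in ZNF738 and 32 in ZNF91. Their transcripts had a median length of 3541 bases and a median GC content of 42.5%, with a range of 33.5% to 71.1%, against a median of 48.9% over all genes tested.

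A finger with the linker that follows it is shown for 5 members, since the members' values in IL-10 replicate 2 differed along base composition. Each is the first in its protein with the canonical spacing and linker, read from GENCODE 29 (GRCh38) and printed 5′ to 3′ on the coding strand. The capitals mark the codons of the zinc-binding cysteines and histidines.
ZNF254: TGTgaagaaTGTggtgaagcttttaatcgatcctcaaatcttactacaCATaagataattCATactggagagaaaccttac
ZNF91: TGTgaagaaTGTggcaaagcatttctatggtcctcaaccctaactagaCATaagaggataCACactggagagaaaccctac
ZNF146: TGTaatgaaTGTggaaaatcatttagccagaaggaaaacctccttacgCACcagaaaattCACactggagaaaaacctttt
ZNF317: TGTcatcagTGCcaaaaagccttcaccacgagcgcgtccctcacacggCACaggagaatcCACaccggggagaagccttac
ZNF787: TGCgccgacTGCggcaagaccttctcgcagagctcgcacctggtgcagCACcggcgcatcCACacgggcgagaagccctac
These stretches of 81 bases lie in the last exon of their genes. That of ZNF254 is at chr19:24126802-24126882 (plus strand, exon 4) and that of ZNF91 at chr19:23362097-23362177 (minus strand, exon 4). That of ZNF146 is at chr19:36236660-36236740 (plus strand, exon 3), that of ZNF317 at chr19:9160315-9160395 (plus strand, exon 7) and that of ZNF787 at chr19:56088806-56088886 (minus strand, exon 3). Their GC content was 34.6% in ZNF254, 43.2% in ZNF91, 37.0% in ZNF146, 58.0% in ZNF317 and 67.9% in ZNF787. The same protein fold was therefore written in a base composition that differed widely between members.

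The stretch of 18 bases held by the most members in their coding sequences spans the end of a finger and the linker.
Linker window: tcatactggagagaaacc
Searched on the coding strand, it occurred in 71 of the 208 members (34.1%) with 261 copies, 260 of them in the reading frame that gives the last zinc-binding histidine and the linker. ZNF845, with 26 fingers, held 15 copies. Outside chromosome 19, 34 of 230 ZNF genes (14.8%) held it, and 4 of 14909 other protein-coding genes (0.0268%). Shared stretches limit how well short reads can be told apart between members. On the same strand, 144 of the 192 members (75%) shared under 10% of their 50-base windows with another annotated gene. For 7 members the share was 50% or more, and their values are uncertain, among them ZNF320 with 99.5% (mainly shared with ZNF468), ZNF564 with 84.7% and ZNF490 with 70.9%. The use of strand in counting is not given in the sources used here, so reads of a gene and of an overlapping antisense gene cannot be told apart.

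The recovered depth was 20750115 to 24222897 reads per library, of which the described members held 50623, 42915 and 58482 in IL-10 replicates 1 to 3 and 57686, 53988 and 62718 in control replicates 1 to 3. IL-10 replicate 2 stood apart. It was the library farthest from the median for 130 of the 192 members (67.7%), against 51.0% of all genes tested, and the lowest library for 117. Over 126 members with a mean of at least 100, the mean squared difference in units of counting error, about 1 where only counting differs, was 46.1 to 74.0 between IL-10 replicate 2 and the other libraries. Between all other pairs of libraries it was 1.59 to 9.47. The 8 Kasumi-1 myeloblast markers, among them RUNX1T1, KIT and MPO, were all tested and summed to 132342 to 222503 in IL-10 libraries and 131813 to 229517 in control libraries. Marker sums of other cell types were low beside these. The liver list (5 of 12 tested) summed to 1329.5 to 1696 in IL-10 and 1323 to 2025 in control libraries, the T cell list (3 of 3) to 1765 to 2628 in IL-10 and 1626 to 2367 in control libraries, and the B cell list (2 of 3) to 259.7 to 434 in IL-10 and 276 to 326 in control libraries. The airway secretory list (6 of 7) summed to 88.7 to 101.1 in IL-10 and 184 to 223 in control libraries. The 1 fibroblast marker analysed (of 4) had 0 to 4.70 in IL-10 and 3.56 to 3.98 in control libraries. None of the markers in the table was at 0 in all libraries, and their part in the members' values was not tested. In bulk RNA, fewer cells of a type and less RNA per cell cannot be told apart.

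No chromosome 19 zinc finger gene passed the threshold between IL-10 and control cells. With limma on log2(value + 1), 0 of 192 members had a Benjamini-Hochberg adjusted p under 0.05, where 0% of the 21946 genes tested did. The smallest adjusted p of a member was 0.982. Unadjusted p-values under 0.05 were had by 344 genes, 2 of them members (ZNF426 and ZNF527). On the recovered reads, edgeR's quasi-likelihood test also called 0 genes (257 genes with an unadjusted p under 0.05, 1 a member) and DESeq2 0 (94 genes, 1 a member). The median log2 fold change of the members was -0.13, with 133 below 0 and 59 above (69.3% below). Over all genes tested the median was 0.02 with 48.0% below 0. It was -0.08 for the 224 ZNF genes of other chromosomes and 0.21 for the 895 other protein-coding genes of chromosome 19. Without IL-10 replicate 2 the members' median was 0.00 and 92 of 192 (47.9%) lay below 0, so the lower median of the members rested on that library.

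The summed level of the members was similar in 5 of the 6 libraries. Their values summed to 54104, 50441 and 55546 normalised reads in IL-10 replicates 1 to 3, against 53742, 53687 and 55799 in control replicates 1 to 3. The groups overlapped, and the low value was that of IL-10 replicate 2. The median member had 173, 132 and 181 normalised reads in IL-10 replicates and 174, 167 and 178 in control replicates. Member by member, 2 of 192 (1.04%) had all IL-10 libraries above all control libraries, where 2.85% of all genes tested did, and 6 (3.13%) had all IL-10 libraries below, where 3.02% did. Both shares lay near or under those of all genes.

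Same-numbered libraries were compared next, since the replicate numbers were treated as pairs, which rests on the values and not on the labels. In pair 1 (IL-10 replicate 1 over control replicate 1) the median log2 ratio of the members was 0.01 and in pair 3 it was -0.00. In pair 2 it was -0.42, with 133 members below 0 and 59 above. Over all genes tested the medians were 0.00, 0.03 and 0.00 in pairs 1, 2 and 3. Pair 2 gave -0.16 for ZNF genes of other chromosomes and 0.66 for other protein-coding genes of chromosome 19, which had a median transcript GC content of 60.9%. Among genes with a mean of at least 100, no member of 126 was 1.5-fold or more higher or lower in pair 1, where 0.0381% and 0.0666% of 10505 genes were, or in pair 3, where 0.0476% and 0% were. In pair 2, 45 of 126 members (35.7%) were at least 1.5-fold lower and 18 (14.3%) at least 1.5-fold higher, beside 13.2% and 22.3% of all such genes. Single libraries stand behind each pair, so these are descriptions with no test.

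**Figure D1:**
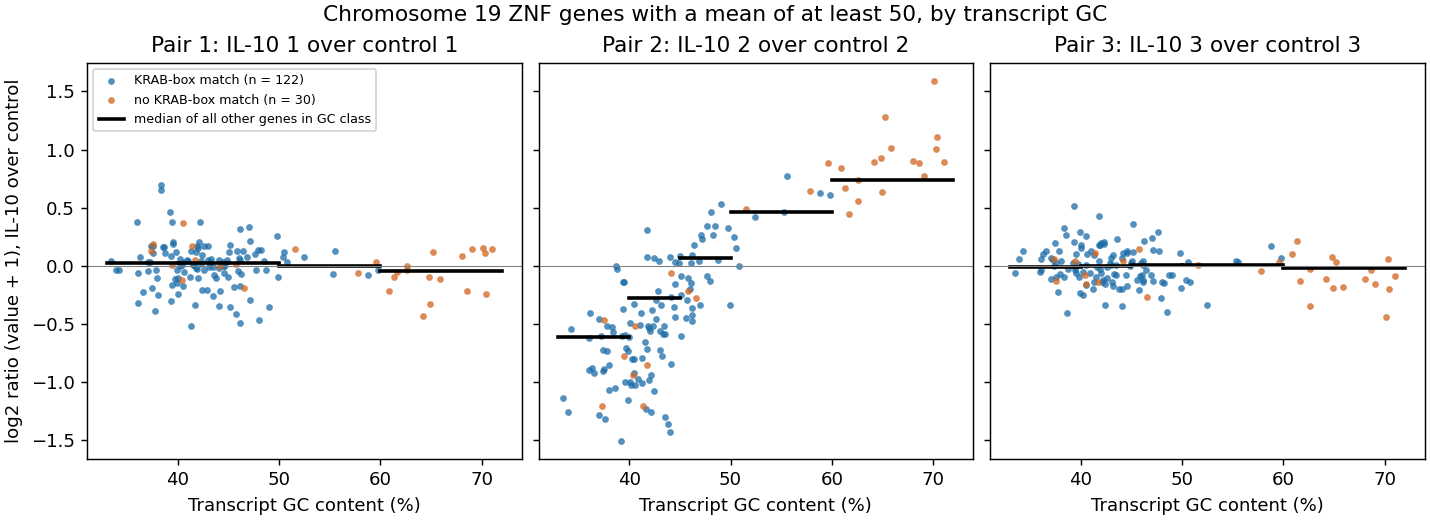
The log2 ratio of IL-10 over control (value + 1) in each same-numbered pair is plotted against transcript GC content (%) for the 152 members with a mean of at least 50. Points are coloured by KRAB-box match and black bars are medians of all other tested genes in each GC class. In pairs 1 and 3 the points scatter around 0 at every GC content, and in pair 2 they climb from below -1 at low GC to about 1 at high GC.

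The pair 2 ratio of the members followed their transcript GC content. Across the 192 members its Spearman correlation with GC content was 0.706, and across 21471 other genes with a transcript it was 0.516. These are correlations across genes of the same 2 libraries, given with no test. Pair 1 gave -0.104 and pair 3 -0.119. For finger number the pair 2 correlation was -0.271 and for transcript length -0.192. Of the 129 members with under 45% GC, 112 were lower in IL-10 replicate 2, with a median of -0.60, and of the 25 with at least 55% none was lower, with a median of 0.77. The 38 members between had a median of -0.09. Genes other than members gave -0.44, 0.13 and 0.57 in the same classes from low to high GC. The members thus lay further from 0 than other genes at both ends, and between 45% and 55% they lay on the other side of 0. The classes were not matched: median GC content was 40.9%, 47.0% and 64.2% for members and 40.8%, 49.7% and 59.9% for other genes. In finer classes (mean at least 50), ZNF genes of other chromosomes lay further from 0 than members under 40% GC (-0.997 against -0.73). They also lay below 0 at 45% to 50% GC (-0.12 against -0.10). In the remaining finer classes the members lay further from 0 than these ZNF genes. Other protein-coding genes of chromosome 19 lay further from 0 than members at 50% to 60% GC (0.62 for 241 genes against 0.48 for 11). At 45% to 50% GC they lay above 0 (0.28 for 15 genes). At 60% GC or more they lay nearer 0 than members (0.78 for 390 genes against 0.89 for 17). Under 40% and at 40% to 45% they also lay nearer 0, with only 3 and 6 genes. A correction of each library for transcript GC and length brought the median IL-10 against control log2 fold change of the members to -0.05 in limma. The part of base composition in the difference between IL-10 replicate 2 and the other libraries was not tested.

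**Figure D2:**
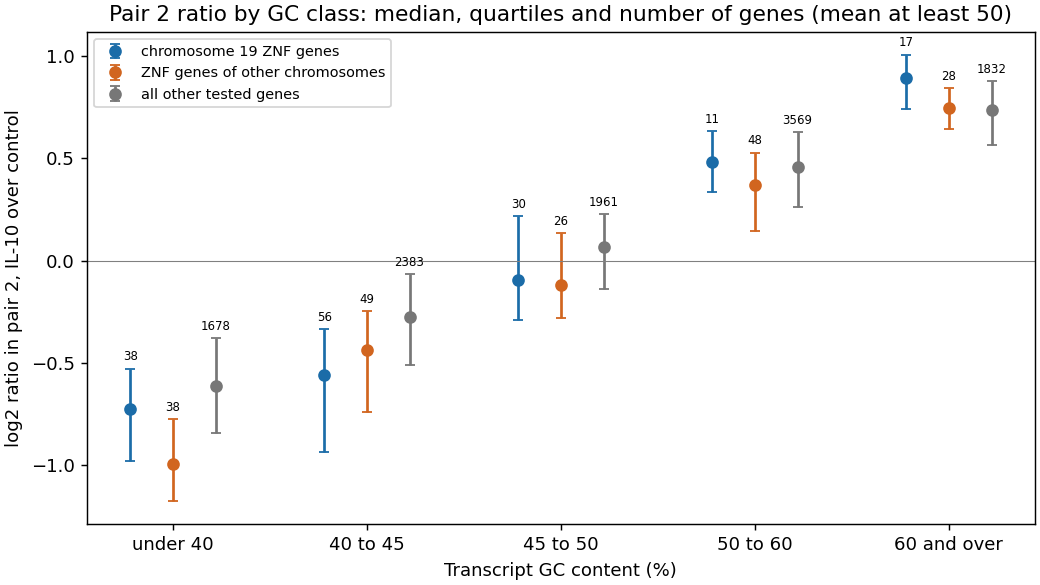
Median log2 ratio of IL-10 over control in pair 2 by class of transcript GC content (%), with quartiles as bars and the number of genes above each point, where the mean was 50 or more. From the lowest to the highest class the medians are -0.73, -0.56, -0.10, 0.48 and 0.89 for chromosome 19 members, -0.997, -0.44, -0.12, 0.37 and 0.75 for ZNF genes of other chromosomes, and -0.62, -0.27, 0.07, 0.46 and 0.74 for all other tested genes.

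Members with and without a KRAB match differed in pair 2 and in GC content together. The 158 with a match had a median GC content of 42.2%, a median log2 fold change of -0.17 and a pair 2 median of -0.48. The 34 without one had 61.2% GC, 0.14 and 0.59. Within the class under 45% GC the order was the other way round, with a pair 2 median of -0.59 for 119 members with a match and -0.82 for 10 without. At 55% GC or more it was that of the whole, with 0.62 for 4 members with a match and 0.88 for 21 without. The 65 described members that hold the linker window printed above had a pair 2 median of -0.73, and the 127 that do not hold it -0.14. The GC content of those groups was not compared, so the part of base composition in this difference was not tested. In pairs 1 and 3 the medians of members with and without a KRAB match lay between -0.04 and 0.01.

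The 5 retroelement binders named here, ZNF91, ZNF93, ZNF765, ZNF611 and ZNF808, were expressed, and none passed the limma test. ZNF91, which represses SVA and L1 elements, had 535, 237 and 697 normalised reads in IL-10 replicates 1 to 3 and 553, 581 and 667 in control replicates 1 to 3. Its log2 fold change was -0.42 ± 0.35 (SE), with a 95% interval of -1.22 to 0.37 and a limma adjusted p of 0.982. The low value stood in IL-10 replicate 2 alone, and the other IL-10 libraries fell within or just outside the control range. ZNF93, which acts on L1 elements, had 221, 96.4 and 239 in IL-10 and 212, 169 and 248 in control replicates, with -0.27 ± 0.35. ZNF765, another L1 binder, had 255, 130.5 and 243 in IL-10 and 224, 262 and 254 in control replicates, with -0.29 ± 0.27. Both showed the pattern of ZNF91, and without IL-10 replicate 2 the fold changes of all 3 were 0.03, 0.15 and 0.02. ZNF611, a binder of SVA elements, had 175, 162 and 206 in IL-10 and 198, 204 and 231 in control replicates (-0.22 ± 0.19), each pair being lower with IL-10 while the groups overlapped. ZNF808, which silences MER11 elements and is needed for pancreas development, was low at 66.3, 35.3 and 83.6 in IL-10 and 64.3, 50.7 and 76.5 in control replicates (-0.11 ± 0.34). Leaving out IL-10 replicate 2 gave -0.15 for ZNF611 and 0.24 for ZNF808. ZNF808 shared 28.6% of its windows with other genes, mainly ZNF701.

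The members taken up next, ZNF274, ZNF473, ZNF331, ZNF675, ZNF382 and ZNF175, have roles in chromatin, RNA processing, signalling or imprinting or as repressors, and none of the 6 passed the limma test. ZNF274, which brings SETDB1 to the 3′ ends of zinc finger genes, had 634, 648 and 623 in IL-10 and 619.5, 648 and 685 in control replicates. Its log2 fold change of -0.04 ± 0.15 had a 95% interval of -0.38 to 0.31, and its GC content was 50.8%. ZNF473, a factor of histone pre-mRNA processing, had 522, 676 and 444 in IL-10 and 475, 561 and 491 in control replicates (0.09 ± 0.20). The imprinted gene ZNF331 had 77.0, 77.6 and 64.6 in IL-10 and 61.5, 72.6 and 70.3 in control replicates (0.10 ± 0.22). These 3 genes, with a GC content of 46.2% to 50.8%, had no low value in IL-10 replicate 2. ZNF675, an inhibitor of TRAF6 signalling, had 507, 235 and 496 in IL-10 and 481, 434 and 461 in control replicates (-0.23 ± 0.29). ZNF382, a KRAB repressor, had 267, 90.5 and 259 in IL-10 and 266, 214 and 262 in control replicates (-0.41 ± 0.39). In both the second IL-10 library was low and the others lay close to control. ZNF175 had 466, 313 and 606 in IL-10 and 466, 349 and 555 in control replicates (-0.01 ± 0.27), the same-numbered libraries moving together. With IL-10 replicate 2 left out the fold changes were -0.05 for ZNF274, -0.08 for ZNF473, 0.05 for ZNF331, 0.13 for ZNF675, 0.10 for ZNF382 and 0.24 for ZNF175, and the sign turned in the other direction for all but ZNF274 and ZNF331.

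Of the zinc finger genes first cloned from bone marrow, the 3 described here were expressed in this myeloid line. ZNF224, a cofactor of WT1, had 233, 108 and 242 in IL-10 and 234, 222 and 288 in control replicates, with a log2 fold change of -0.43 ± 0.31. ZNF253 had 242, 139 and 262 in IL-10 and 283, 265 and 239 in control replicates (-0.34 ± 0.26). ZNF254 had 596, 257 and 601 in IL-10 and 579, 568 and 628 in control replicates (-0.39 ± 0.31). None passed the limma test (adjusted p = 0.982 for each), and in all 3 the low value was that of IL-10 replicate 2. Without it the fold changes were -0.05 for ZNF224, -0.06 for ZNF253 and 0.02 for ZNF254. ZNF257, of the same group, and the neural ZNF536 were not analysed here. ZNF83 had 702, 333 and 667 in IL-10 and 678, 602 and 733 in control replicates (-0.31 ± 0.28), and ZNF85 261, 134 and 318 in IL-10 and 272, 249.6 and 327 in control replicates (-0.33 ± 0.31). Without IL-10 replicate 2 these were 0.03 for ZNF83 and 0.04 for ZNF85. Of the members known from restricted tissues, ZNF541, a gene of meiotic male germ cells, was near the counting floor at 6.41, 2.35 and 1.90 in IL-10 and 2.79, 1.99 and 3.56 in control replicates. ZNF296, a factor of pluripotent cells in mouse with a transcript GC content of 68.1%, had 174, 470.1 and 132 in IL-10 and 164, 251 and 143 in control replicates (0.29 ± 0.44). There the high value was that of IL-10 replicate 2, and without it the fold change was -0.25.

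Per kilobase of transcript, the members' mean level over the 6 libraries ran from 0.368 to 968 with a median of 48.7. ZNF787 stood highest at 968 per kb and had 1488, 3798 and 1342 normalised reads in IL-10 and 1378, 1886 and 1289 in control replicates. Its log2 fold change was 0.39 ± 0.37 (limma adjusted p = 0.982). It was -0.08 once IL-10 replicate 2 was left out. ZNF146, which consists of 10 fingers with little else, came next at 696 per kb and had 3112, 1211 and 3061 in IL-10 and 2761, 2794 and 2839 in control replicates. Its log2 fold change was -0.31 ± 0.33, and 0.14 without IL-10 replicate 2. In the same library these members lay on opposite sides of the rest: ZNF787 has a transcript GC content of 70.3% and ZNF146 one of 41.4%. ZNF581 (464 per kb) had 585, 732 and 709 in IL-10 and 572, 396 and 694 in control replicates (0.32 ± 0.23). ZNF428 (413 per kb) had 494, 967 and 486 in IL-10 and 528, 607 and 419 in control replicates (0.26 ± 0.29). ZNF317 (412 per kb) had 1592, 2069.8 and 1511 in IL-10 and 1510.2, 1740.2 and 1643 in control replicates (0.07 ± 0.17). With IL-10 replicate 2 left out, ZNF581 gave 0.25, ZNF428 -0.06 and ZNF317 -0.07, the last 2 with a change of sign. The levels of these 3 differ by less than the spread of their libraries. Of the 5, ZNF317 alone has a KRAB match. In all, 9 members had a mean of at least 1000: ZNF146, ZNF121, ZNF787, ZNF317, ZNF266, ZNF579, ZNF574, ZNF431 and ZNF507.

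**Figure D3:**
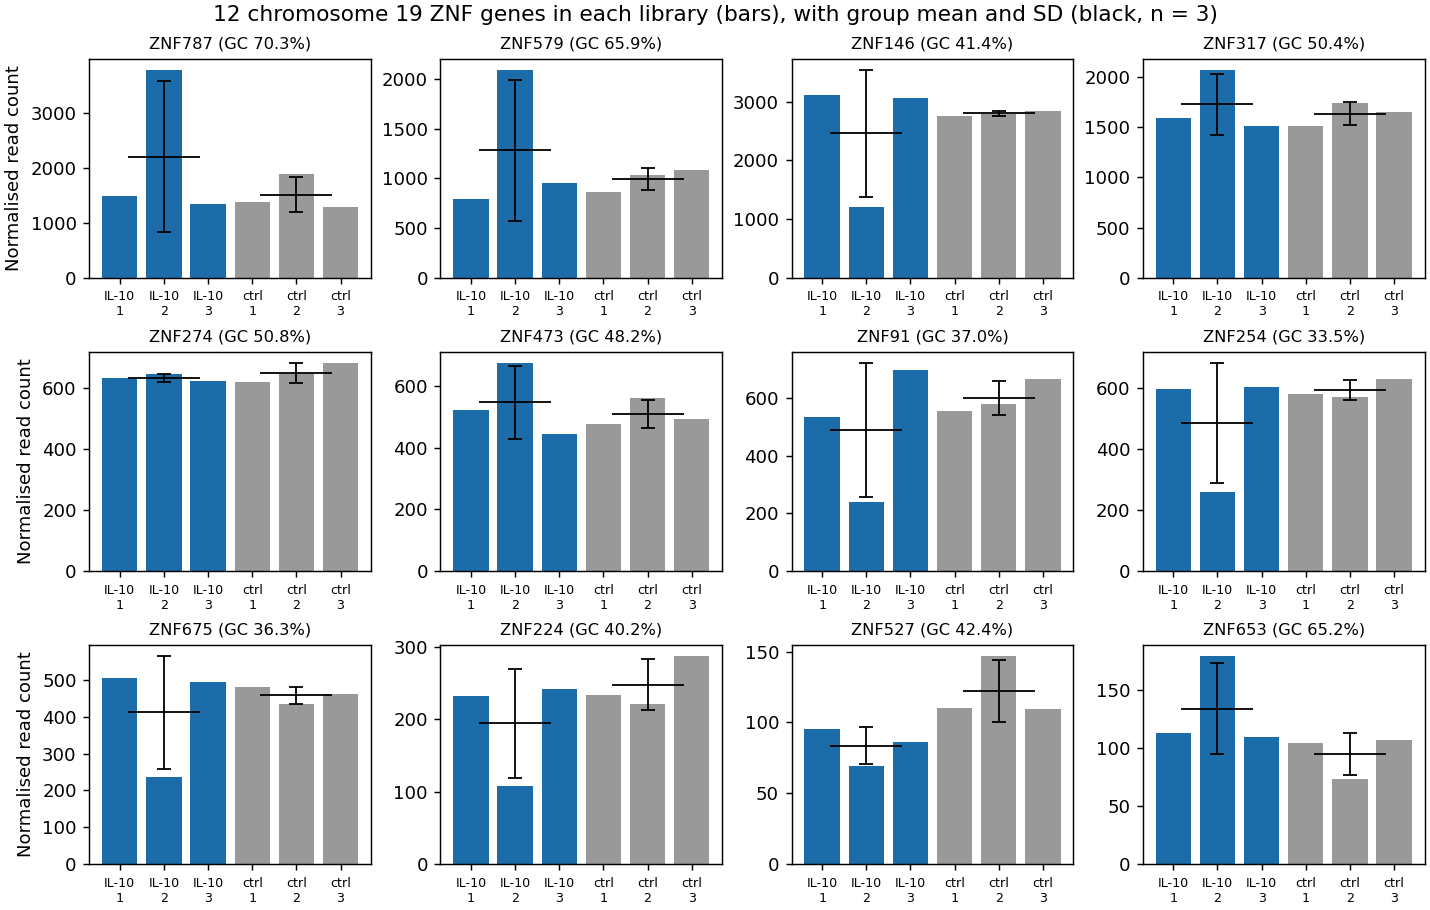
Normalised read count of 12 members in each library, IL-10 libraries in blue and control libraries in grey, with the group mean and SD (n = 3) as black lines and the transcript GC content in each title. IL-10 replicate 2 is the highest bar in the GC-rich ZNF787 (3798) and ZNF579 (2096), the lowest in the AT-rich ZNF146 (1211), ZNF91 (237) and ZNF254 (257), and level with the rest in ZNF274 (648).

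The members with the smallest p-values in each direction, among those with a mean of at least 20, did not pass either. On the lower side, ZNF527 had 95.1, 69.3 and 86.4 in IL-10 and 109.9, 147 and 109 in control replicates. Every IL-10 library lay below every control library, with a log2 fold change of -0.54 ± 0.23, an unadjusted p of 0.0465 and a limma adjusted p of 0.982. ZNF17, ZNF569, ZNF302 and ZNF846 followed with -0.56, -0.45, -0.48 and -0.57 and overlapping groups, and with -0.20, -0.24, -0.16 and -0.09 when IL-10 replicate 2 was left out. ZNF527 then gave -0.41. On the higher side, ZNF653 had 113, 179.8 and 109 in IL-10 and 104, 73.6 and 107 in control replicates. The groups did not overlap, but pair 2 gave 1.28 where pairs 1 and 3 gave 0.12 and 0.03, and the fold change was 0.48 ± 0.27, or 0.25 with IL-10 replicate 2 left out. ZNF581, ZNF490, ZNF787 and ZNF71 followed with 0.32, 0.24, 0.39 and 0.31, and with 0.25, 0.25, -0.08 and -0.03 when that library was left out. ZNF490, uncertain for its shared sequence, had ratios of 0.10, 0.34 and 0.29 in pairs 1, 2 and 3, so its difference did not stand in pair 2 alone. The other member with IL-10 above control throughout was ZNF792, with 338, 314 and 319 in IL-10 and 310.2, 282 and 311 in control replicates. The others below throughout were ZNF426, ZNF564, ZNF154, ZNF671 and ZNF329, named after their values were seen. ZNF426 had 5.34, 4.70 and 6.65 in IL-10 and 10.2, 10.9 and 10.7 in control replicates, a difference of a few reads.

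By position, with a new cluster wherever neighbouring starts lay more than 1000000 bases apart, the members fell into 15 clusters or single genes, 8 of which held 5 or more described members. The cluster of 26 members between ZNF101 and ZNF254 (chr19:19668796-24129961, GRCh38) had the lowest GC content, with a median of 37.4%. Its 25 described members had a pair 2 median of -0.89, with 23 below 0, and medians of 0.03 and 0.01 in pairs 1 and 3. The telomeric cluster of 53 members between ZNF628 and ZNF446 (chr19:55476332-58481230) had a median GC content of 47.0% and a pair 2 median of 0.04, with 22 of 52 below 0. Pair 2 medians of the clusters between were -0.52 for the 22 described members around ZNF146, -0.43 for the 18 around ZNF224 and -0.58 for the 20 around ZNF83. On the short arm they were 0.26 for 5 members around ZNF77, -0.52 for 13 around ZNF317 and -0.46 for 23 around ZNF700. Clusters differed in pair 2 in the order of their GC content in part only, since the members around ZNF146 (39.6% GC) and around ZNF317 (43.5% GC) had the same median. Median levels were 26.9 to 98.3 per kb over the 8 clusters. Single described members in the cluster of ZNF254 ran from 1.84 per kb in ZNF737 to 382 in ZNF100.

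**Figure D4:**
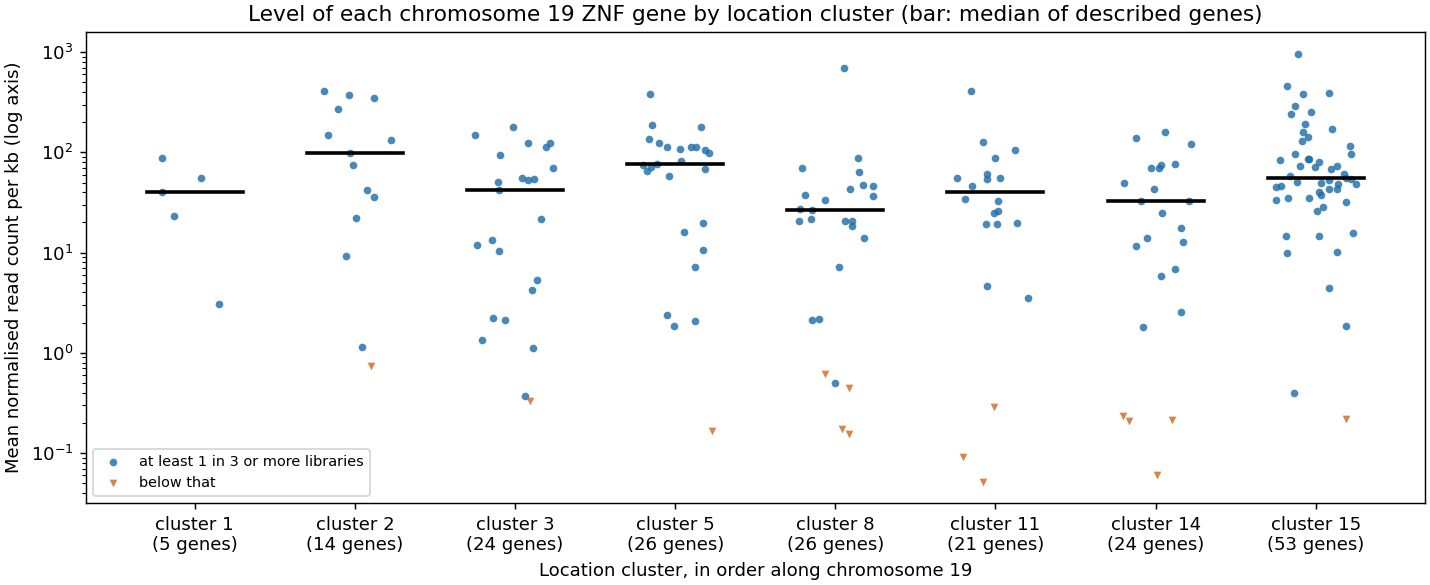
Mean normalised read count per kb of transcript over the 6 libraries, on a log axis, for every member of the 8 clusters with 5 or more described members, in order along chromosome 19. Blue points are described members, orange triangles those below the filter, and bars the medians of described members. In cluster 5 the described members lie between 1.84 per kb (ZNF737) and 382 per kb (ZNF100).

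The 16 members below the filter were scattered over the clusters: ZNF177, ZNF491, ZNF43, ZNF599, ZNF829, ZNF568, ZNF793, ZNF781, ZNF283, ZNF404, ZNF112, ZNF432, ZNF841, ZNF528, ZNF347 and ZNF418. ZNF43, known from lymphoid cells, was at 0 in all 3 IL-10 libraries and at 0, 1.99 and 0.890 in control replicates. A count of 0 allows up to 3 reads, or 2.85 to 3.53 in the units of the IL-10 libraries, so its level was not detectable at this depth. Its neighbour ZNF100, the highest of the cluster per kb, had 814, 353 and 733 in IL-10 and 751, 785 and 782 in control replicates. Their promoter windows in RefSeq (GRCh38.p14), 250 bases before to 50 after the start, are shown because they are alike in sequence while the genes differ in level. The capitals mark CpG dinucleotides, which read the same on both strands.
ZNF43: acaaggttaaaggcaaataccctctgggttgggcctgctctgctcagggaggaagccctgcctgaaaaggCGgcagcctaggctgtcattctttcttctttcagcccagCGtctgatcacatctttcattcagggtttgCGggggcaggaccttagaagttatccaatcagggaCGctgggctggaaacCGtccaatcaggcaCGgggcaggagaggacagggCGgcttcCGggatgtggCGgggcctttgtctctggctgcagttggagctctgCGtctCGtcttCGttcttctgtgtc
ZNF100: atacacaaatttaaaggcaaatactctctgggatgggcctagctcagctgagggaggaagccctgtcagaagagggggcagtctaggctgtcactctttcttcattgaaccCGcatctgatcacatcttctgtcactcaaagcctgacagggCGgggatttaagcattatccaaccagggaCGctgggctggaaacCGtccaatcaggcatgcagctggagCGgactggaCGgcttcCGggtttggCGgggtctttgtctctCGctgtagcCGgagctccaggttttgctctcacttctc
They lie at chr19:21836133-21836432 and chr19:21767530-21767829, both on the minus strand, and 236 of 308 aligned positions (76.6%) were identical, where ZNF43 and ZNF146 gave 47.3%. ZNF43 held 12 CpG and ZNF100 10. The RefSeq start of ZNF43 is 15743 bases from the GENCODE 29 gene start, so the window is that of 1 of its annotated starts.

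Over the members in the RefSeq promoter table (188 of 208), the CpG count was no guide to level. The 173 described members had a median of 20 CpG in 300 bases and the 15 others 16, beside 14 over all 35116 promoters of the table. Across the 173, the Spearman correlation between CpG count and level per kb was 0.012, a description across genes. Members that start head to head, within 1000 bases on opposite strands, were a further case. ZNF829 and ZNF568 start 38 bases apart and both were near 0. ZNF568, whose mouse counterpart silences a placental Igf2 transcript, had 2.14, 0 and 0 in IL-10 and 0, 0 and 1.78 in control replicates. Of the pairs that overlap at their starts, ZNF529 and ZNF382 had 64.4 and 27.2 per kb, and ZNF790 and ZNF345 26.6 and 14.1. ZNF585B and ZNF383 differed, with 0.498 and 46.9 per kb. ZNF585B shared 26.6% of its windows with other genes, mainly ZNF585A.

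The corepressors through which KRAB zinc finger proteins act were all expressed, and none passed the limma test. Of 18 genes, 9 had a log2 fold change above 0 and 9 below, with a median of -0.00, and 0 of 18 were called. TRIM28, the scaffold that binds the KRAB box, had 13944, 31461 and 12548 in IL-10 and 14121, 15901 and 12359 in control replicates (0.33 ± 0.32, adjusted p = 0.982). Pair 2 gave 0.98, and pairs 1 and 3 gave -0.02 and 0.02. The other 5 of highest mean were DNMT1 (0.16 ± 0.23), which maintains DNA methylation, CHD4 (0.14 ± 0.19) and HDAC1 (0.06 ± 0.17) of the NuRD complex, UHRF1 (0.11 ± 0.29), which guides DNMT1, and CHD3 (0.20 ± 0.16). SETDB1 had 1117, 1084 and 1050.5 in IL-10 and 1029, 1030.2 and 1041 in control replicates (0.07 ± 0.15), with every IL-10 library above every control library by a small step. The same held for CHD3, with 6219, 7581 and 6396 in IL-10 and 6002, 5508 and 6066 in control replicates. Over all genes tested, 2.85% had all IL-10 libraries above all control libraries. Pair 2 ratios of the list ran from -1.09 in SMARCAD1 to 0.98 in TRIM28, with 9 of 18 below 0, while pairs 1 and 3 stayed between -0.06 and 0.12.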

How the data were processed

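RNA of 3 IL-10 and 3 control samples of Kasumi-1 cells, grouped by their treatment label, was taken up in Trizol, and TruSeq libraries were made, per the labels' protocols. Though the deposited table is named FPKM, the authors deposited a normalised signal, in which each library's read counts had been divided by a single size factor. The values themselves show this. All values of a library (100%) were whole multiples of 1 step, within 0.01 read, for genes of any length. GRCh38, hg38 and edgeR 3.18.1 are named, per the submitters' processing notes, without saying what each was for. The aligner, the counter, the gene annotation and how strand was used were not given in the sources used here. Libraries held 20750115 to 24222897 recovered reads. Floors cover counting error only.

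Of the identifiers, 27052 of 27576 matched GENCODE 29, which gave position, sequence and, for 1 transcript a gene (the best principal isoform, then the longest), length and GC content. The members and all gene lists were chosen with earlier results of these data known. The test planned for FPKM was kept: limma 3.58.1 under R 4.3.3, fitted to log2(value + 1) with an intensity trend, 21946 genes with at least 1 in 3 or more libraries, two-sided, threshold 0.05 after Benjamini-Hochberg adjustment over all of them. This scale understates changes of low genes. DESeq2 1.42.0 and edgeR 4.0.16, with its quasi-likelihood test, were run on the recovered reads. Named were members with known roles, the 5 of smallest p in each direction with a mean of at least 20, the 5 of highest level per kb, and corepressors. Alternatives changed the pseudocount, filter, scaling, weights, GC and length, pairing and libraries. The scripts were tested on simulated data.

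The replicate numbers were checked for pairing. Deviations from the group means correlated at 0.356, 0.602 and 0.726 between same-numbered libraries (11604 genes whose mean was 50 or more). As each is over 0.1, replicate numbers were treated as pairs. That bar does not separate pairs by itself. Between libraries of different number the values ran from -0.695 to 0.203. Deviations within a group cancel each other by construction, so positive values between same-numbered libraries push the others down. This contrast is therefore not separate support for the pairing. IL-10 replicate 1 with control replicate 3 (0.167) and IL-10 replicate 3 with control replicate 1 (0.203) also passed the bar of 0.1. Over the 126 members with a mean of at least 100, IL-10 replicate 1 gave 0.227 with control replicate 1 and 0.273 with control replicate 3. The labels give a shared number only, so the pairing rests on the values. The main limma fit had no replicate block, so its SE, intervals and p-values do not use the pairing. A fit with the block was run as an alternative.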

Additional observations from a re-analysis of the deposited data

How the results depend on the processing

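The count of members past the threshold was 0 under every alternative run. The smallest adjusted p in any of them was 0.385 for a named member and 0.140 over all members, both in limma with sample weights. In that limma fit 14 of 192 members and 2519 of 21946 genes had an unadjusted p under 0.05. The count over all genes was 0 as well, with 1 exception. Limma with the replicate block on pairs 1 and 3 only, with 1 residual degree of freedom, called 10 genes, none a member. In that limma fit 9 of 192 members had an unadjusted p under 0.05, beside 1008 of all 21946 genes tested. With the replicate block on all 6 libraries 0 genes were called (512 with an unadjusted p under 0.05) and the members' median log2 fold change was -0.13, as without the block. Leaving out each library in turn, the counts stayed at 0 to 0 and the median ran from -0.22 (without IL-10 replicate 3) to 0.00 (without IL-10 replicate 2).

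The median of the members was -0.00 with sample weights and -0.00 on pairs 1 and 3 only, -0.05 with the GC and length correction, -0.10 with edgeR, -0.09 with DESeq2 and -0.23 with equal library totals. It was -0.21 without IL-10 replicate 1 and -0.18 without control replicate 2. The share of members below 0 was 52.6% with sample weights, 51.0% on pairs 1 and 3, 61.5% with the GC and length correction and 82.8% with equal library totals, against 69.3% as reported. That last scaling shifted the median of all genes to -0.08. Of 711 fold changes of 31 named members under the alternatives, 59 changed sign, in 20 members, 17 of which did so without IL-10 replicate 2. Their cause was not tested. Depth limits members near the floor of 3 reads, and no statement is made on their change.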
